A study of Homo sapiens with 6 samples.

Results

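The NR4A orphan nuclear receptors NR4A1 (also called NGFI-B), NR4A2 (NURR1) and NR4A3 (NOR-1) are the subject here. Their members were the probe sets whose platform annotation gave a single gene symbol equal to one of these names, which found all 3 genes among 11963 named genes. They had 9 probe sets of 22215, 3 for each gene. The samples were NCI-H295A cells, an established line from 1 human adrenocortical carcinoma, either untreated (control, 3 arrays) or exposed to 1 mM 8-Br-cAMP during 18 h (3 arrays). No other time was sampled, so levels before 18 h are not known. Both groups were grown in RPMI medium with fetal calf serum, insulin, selenium and gentamicin, and no other agent or genetic change was labelled. As a single tumour line, it stands for no spread between people. The sample numbers 1 to 3 occur in both groups. The series' design text speaks of 3 separate experiments, but the labels tie no plate to one, so the p-values cover the spread among these plates, and that spread may be partly technical. In a plate of cells, fewer expressing cells and less RNA per cell cannot be told apart.

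NR4A proteins are transcription factors of the nuclear receptor family whose ligand pocket is closed by bulky side chains, so their activity depends largely on how much of the protein is made and how it is modified. Their genes are immediate early genes, switched on without new protein synthesis by cAMP, calcium, growth factors and stress. The proteins bind as monomers to a short site called the NBRE, and NR4A1 and NR4A2 also pair with retinoid X receptors. In the adrenal cortex, the pituitary hormone ACTH raises NR4A transcripts through cAMP, protein kinase A and CREB, and NR4A proteins can act on promoters of steroidogenic genes such as HSD3B2 and CYP11B2. 8-Br-cAMP enters cells and stands in for cAMP, so it acts below the hormone receptor.

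The stretch upstream of a gene start is shown because CREB binds cAMP response elements (CREs) there. Windows of 250 bases before RefSeq gene starts (GRCh38.p14) were found for 2 of the 3 genes, 1 for NR4A3 (chr9:99821635-99821884, plus strand) and 2 for NR4A1 (chr12:52022582-52022831 and chr12:52037465-52037714, plus strand). The NR4A3 window and the first NR4A1 window lie outside the genes as RefSeq spans them. The other NR4A1 window lies inside the NR4A1 gene, before a later start, and whether it is exonic or intronic was not determined. Capitals mark the CRE core TGACG on either strand, searched also as the full palindrome TGACGTCA, which holds the core on both strands.

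NR4A3: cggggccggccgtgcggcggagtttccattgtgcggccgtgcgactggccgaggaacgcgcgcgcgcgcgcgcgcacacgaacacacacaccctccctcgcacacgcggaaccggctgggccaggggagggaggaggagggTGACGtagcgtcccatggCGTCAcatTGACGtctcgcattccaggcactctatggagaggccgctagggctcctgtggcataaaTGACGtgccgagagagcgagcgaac
NR4A1 at the first start: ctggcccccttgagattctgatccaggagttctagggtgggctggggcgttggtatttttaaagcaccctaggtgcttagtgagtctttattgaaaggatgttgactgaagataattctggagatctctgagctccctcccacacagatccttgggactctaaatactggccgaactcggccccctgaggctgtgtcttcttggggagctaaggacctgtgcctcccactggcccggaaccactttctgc
NR4A1 at the other start: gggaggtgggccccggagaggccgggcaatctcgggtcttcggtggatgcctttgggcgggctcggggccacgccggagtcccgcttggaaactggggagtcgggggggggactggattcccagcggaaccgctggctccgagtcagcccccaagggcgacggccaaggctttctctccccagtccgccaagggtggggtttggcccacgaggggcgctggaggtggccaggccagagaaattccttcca

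The NR4A3 window held 4 CRE cores, with their first bases at -109, -91, -83 and -25 from the gene start. At least 4 cores occurred in 0.236% of 35116 such windows, and at least 1 in 21.2%. Neither NR4A1 window held a core, and none of the 3 windows held the full palindrome (1.65% of windows do) or the NBRE letters AAAGGTCA on either strand (1.05%). A match is a description of the letters and shows no binding, and other starts of these genes were not searched.

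The arrays hold 1 signal intensity per probe set, a linear measure of hybridised RNA made with GCOS. A mean log2 signal over the 6 arrays above 5.51, a signal of 45.5, was required for testing, which left 13329 probe sets and 7927 genes. Of the 9 NR4A probe sets, 7 passed this filter and 2 of NR4A2 did not. Differences were tested with limma, adjusted by Benjamini-Hochberg over all 13329 probe sets, in a fit without a block and in a paired fit that takes the sample number as a block. The labels do not say that arrays of equal number are pairs. The number 1 arrays stood apart. Their actin control probe sets had a 3'/5' signal ratio, which rises as RNA is degraded, of 5.72 (control) and 38.8 (8-Br-cAMP), while the remaining 4 arrays lay between 1.93 and 2.41. Adrenocortical markers were present, with 9 of 9 measured genes above the filter, among them NR5A1, STAR and CYP17A1. Their summed signal was 8216 to 27764 in controls and 27159 to 54390 after 8-Br-cAMP. Of 12 markers of chromaffin, endothelial, stromal and blood cells, 3 passed the filter (PECAM1, VWF and COL1A1), with summed signals over the 12 genes of 361.3 to 485.4 in controls and 464.9 to 750.0 after treatment. Of these, VWF was 3.12 higher on the log2 scale (adjusted p = 0.0493 paired, 0.212 without the block). With a control mean of 4.94, VWF was tested only through its treated arrays. PECAM1 differed by -0.02 and COL1A1 by -0.05, and the endothelial gene CDH5 lay below the filter. The chromaffin markers CHGA, TH, DBH and PNMT all lay below it. The part of the other cell markers in the NR4A values was not tested.

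NR4A transcripts were higher on average after 8-Br-cAMP on all 9 probe sets, by 0.72 to 3.86 on the log2 scale, and by at least 2-fold on 7 of them. In the paired fit NR4A3 rose on 2 of its 3 probe sets and NR4A1 on 1 of 3, while NR4A2 did not pass. Over all tested probe sets, 1.55% rose in that fit. The 3 of 7 is not read against that share, because the filter takes the mean over both groups: 204622_x_at, 211143_x_at, 209959_at and 216979_at, with control means of 5.01, 5.23, 5.17 and 5.36, were tested only through their treated arrays. With no filter 2 of 9 passed, and 216979_at did not (paired adjusted p = 0.0547). Without the block none of the 7 passed, nor did any of the 13329 (0%; smallest adjusted p 0.0511, and 1474 probe sets at an unadjusted p under 0.05), and 4 of the 7 had an unadjusted p under 0.05. The same 4 also differed 2-fold or more, and so passed a selection like that of the design text, which 2.5% of all tested probe sets passed in the upward direction. On these 4 probe sets the groups did not overlap. Every treated array lay above every control array for 6.02% of all tested probe sets. However, 3 of the 4 had passed the filter only through their treated arrays. Nothing is therefore read from either count, that of the 2-fold selection or that of the groups without overlap. Signals of different probe sets cannot be set against each other, because each has its own probes.

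**Figure D1:**
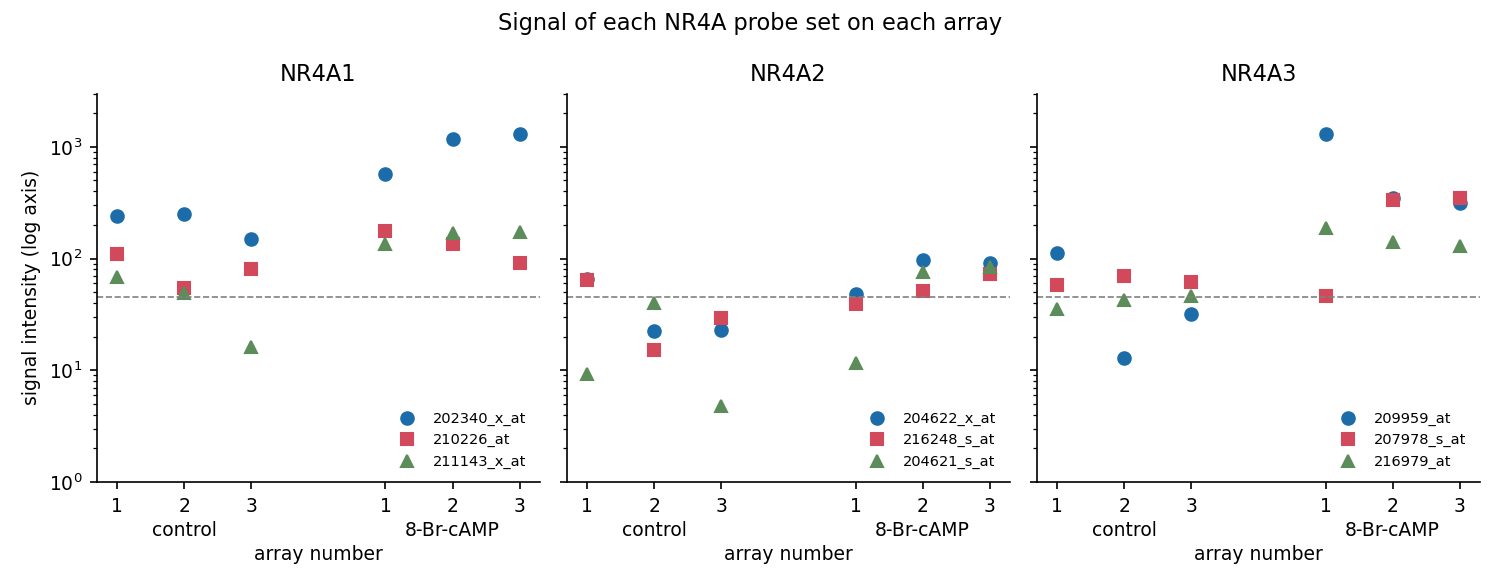
Signal intensity (log axis) of the 3 probe sets of NR4A1, NR4A2 and NR4A3 on each control and 8-Br-cAMP array, 1 point per array, with a dashed line at the filter level of 45.5. All 3 treated points lie above all control points for 202340_x_at and 211143_x_at of NR4A1 and for 209959_at and 216979_at of NR4A3, and NR4A2 stays below 100.

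NR4A3, a receptor also known as the fusion partner of EWSR1 in extraskeletal myxoid chondrosarcoma, had the largest difference of the family on its probe set 209959_at. Its signals were 112.8, 13.0 and 32.0 on controls 1 to 3, and 1309.3, 348.7 and 316.5 on the treated arrays. Every treated array lay above every control, and 2 of the 3 controls lay below the filter level. The mean log2 signal went from 5.17 ± 1.57 (SD, n = 3) to 9.04 ± 1.14, a rise of 3.86 or 14.5-fold (paired SE 0.34, 95% interval 3.05 to 4.67, adjusted p = 0.00893; 0.173 without the block). The paired call was lost in 1 of 10 settings combined with the block, the unmoderated test (adjusted p = 0.272). The fold is imprecise because it starts from signals as low as 13.0, and with 1 pair left out the difference ran from 3.42 to 4.14.

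The other NR4A3 probe sets gave smaller differences. On 216979_at the controls read 35.6, 42.2 and 46.2 and the treated arrays 187.7, 140.3 and 130.0, so that the groups were well apart and tight within themselves. This rise was 1.87 or 3.67-fold, from 5.36 ± 0.19 to 7.24 ± 0.28 (paired SE 0.33, adjusted p = 0.0421; 0.0993 without the block). The call was lost in 3 of 9 settings combined with the block and in 1 of 3 fits with a pair left out. On 207978_s_at the controls read 57.8, 70.4 and 61.6, while the treated arrays read 46.3, 337.0 and 347.0. Here 8-Br-cAMP 2 and 3 stood far above the controls and 8-Br-cAMP 1 below all of them. The mean difference of 1.48 (paired 95% interval 0.14 to 2.81) did not pass (adjusted p = 0.199). Without both number 1 arrays it was 2.38 (adjusted p = 8.81e-05).

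The NR4A3 probe sets thus differed most on the array 8-Br-cAMP 1. There the ratio of 209959_at to 207978_s_at was 28.3, against 1.03 and 0.912 on 8-Br-cAMP 2 and 3 and 0.185 to 1.95 on the controls. The same array carried the actin ratio of 38.8, whose part in the disagreement was not tested. The suffix _s_at marks a probe set that can detect several transcripts of a gene or family, and _x_at one with probes that may also bind other transcripts. In pair 1 the 3 log2 differences of NR4A3 spanned 3.86, from -0.32 to 3.54, and only 7 of 616 genes with 3 tested probe sets spanned more. The median span over those genes was 1.02 in pair 1, 0.63 in pair 2 and 0.49 in pair 3. NR4A3 remained wide in the other pairs, with spans of 3.01 in pair 2 and 1.81 in pair 3, which 5 and 10 of the 616 genes exceeded. All 3 of its probe sets were higher after treatment in pairs 2 and 3. Averaging the 3 probe sets on the log2 scale gave a difference of 2.41 (SE 0.30, 95% interval 1.70 to 3.11). It passed without a block (adjusted p = 0.0344 over 7178 genes, of which 0.153% rose) and with it (0.0198). The averaged 209959_at and 216979_at had passed the probe set filter only through their treated arrays, so this call is not read against that share.

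**Figure D2:**
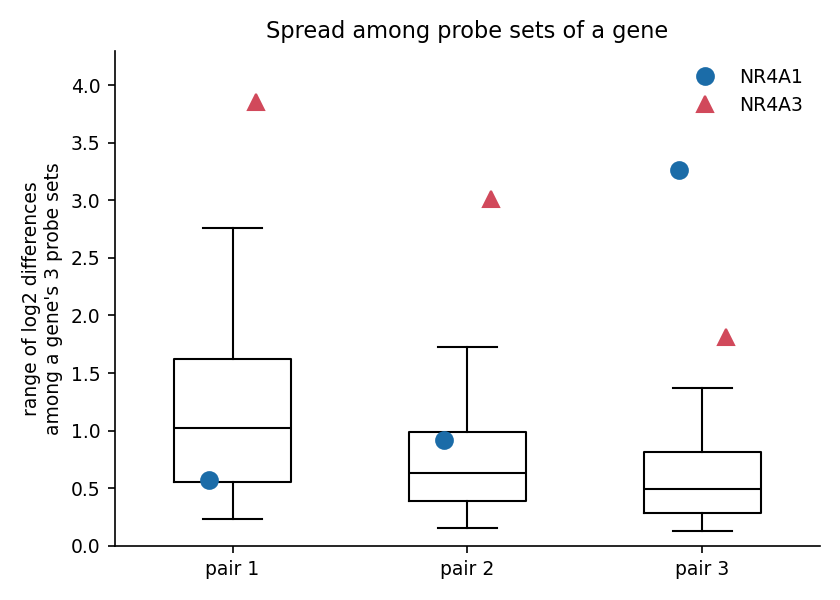
Range of the log2 differences among the 3 probe sets of a gene (highest minus lowest) in each same-numbered pair, for 616 genes with 3 tested probe sets. Boxes show the quartiles and median, whiskers the 5th and 95th percentile; NR4A3 lies above the upper whisker in every pair and NR4A1 in pair 3 alone.

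NR4A1, the family member first described as a nerve growth factor response gene, rose on its brightest probe set, 202340_x_at. Controls 1 to 3 read 241.5, 249.3 and 150.8, and the treated arrays 576.9, 1163.7 and 1297.7. All 6 signals were above the filter level and the groups did not overlap, with 8-Br-cAMP 1 the lowest of the treated arrays. From 7.70 ± 0.41 (SD, n = 3) to 9.90 ± 0.63 on the log2 scale, the rise was 2.19 or 4.58-fold (paired SE 0.35, 95% interval 1.35 to 3.03, adjusted p = 0.0313; 0.111 without the block). The paired call was lost in 4 of 10 settings combined with the block, and without the block the difference passed when the array 8-Br-cAMP 1 was left out (2.56, adjusted p = 0.0250).

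The probe set 211143_x_at showed nearly the same mean difference, 2.08 or 4.23-fold. Its signals were 67.7, 48.8 and 16.1 on controls and 135.1, 171.0 and 173.8 after treatment, with no overlap. The controls were spread widely (SD 1.09 on the log2 scale, against 0.20 after treatment), and the adjusted p was 0.0776 in the paired fit. In contrast, 210226_at read 108.7, 54.9 and 80.6 on controls and 174.9, 135.9 and 90.6 on treated arrays. Its groups overlapped, and the difference of 0.72 (paired 95% interval -0.04 to 1.48, adjusted p = 0.255) did not pass. In pair 3 the NR4A1 probe sets ran from 0.17 to 3.43, a span of 3.26 that 1 of the 616 genes exceeded, whereas in pair 1 they lay within 0.57. The average of the 3 probe sets was 1.67 higher (paired adjusted p = 0.0450, without the block 0.108).

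NR4A2, a receptor known for its need in midbrain dopamine neurons, gave low signals throughout. On 204622_x_at, the probe set that passed the filter, controls read 65.1, 22.4 and 23.1 and treated arrays 47.7, 96.3 and 92.0. Treated arrays 2 and 3 lay above all controls, but control 1 lay above 8-Br-cAMP 1. The difference was 1.22 or 2.32-fold (from 5.01 ± 0.88 to 6.23 ± 0.57, SD, n = 3; paired 95% interval -0.22 to 2.65, adjusted p = 0.300), and without the block the adjusted p was 0.497. Below the filter, 216248_s_at read 64.7, 15.3 and 29.3 on controls and 39.4, 51.3 and 72.1 on treated arrays. The remaining probe set, 204621_s_at, read 9.2, 39.9 and 4.8, and 11.5, 76.1 and 84.2. Both exceeded the same-numbered control on treated arrays 2 and 3 and lay within the control range on 8-Br-cAMP 1, with mean differences of 0.78 and 1.80.

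By same-numbered pair, all 9 probe sets were higher after 8-Br-cAMP in pair 2 and in pair 3, and 6 of 9 in pair 1. The exceptions in pair 1 were 204622_x_at (-0.45) and 216248_s_at (-0.72) of NR4A2 and 207978_s_at (-0.32) of NR4A3. Of the 9, 6 were higher in all 3 pairs, and 5 of these 6 were among the 7 tested. Over all tested probe sets, 15.3% were higher in all 3 pairs. The 5 include 211143_x_at, 209959_at and 216979_at, tested only through their treated arrays, so nothing is read from the count. With both number 1 arrays left out, 6 of 7 tested NR4A probe sets passed without a block, and 12.1% of all tested probe sets rose. The 6 include 204622_x_at, 211143_x_at, 209959_at and 216979_at, tested only through their treated arrays, so they are not read against that share. NR4A2 was then 2.05 higher (204622_x_at, adjusted p = 0.00756), NR4A1 2.66 (202340_x_at, 0.000108) and NR4A3 4.03 (209959_at, 0.000342), while 210226_at of NR4A1 did not pass (0.74, 0.124). Those p-values rest on 2 arrays a group, and the setting was chosen with the standing of the number 1 arrays known.

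**Figure D3:**
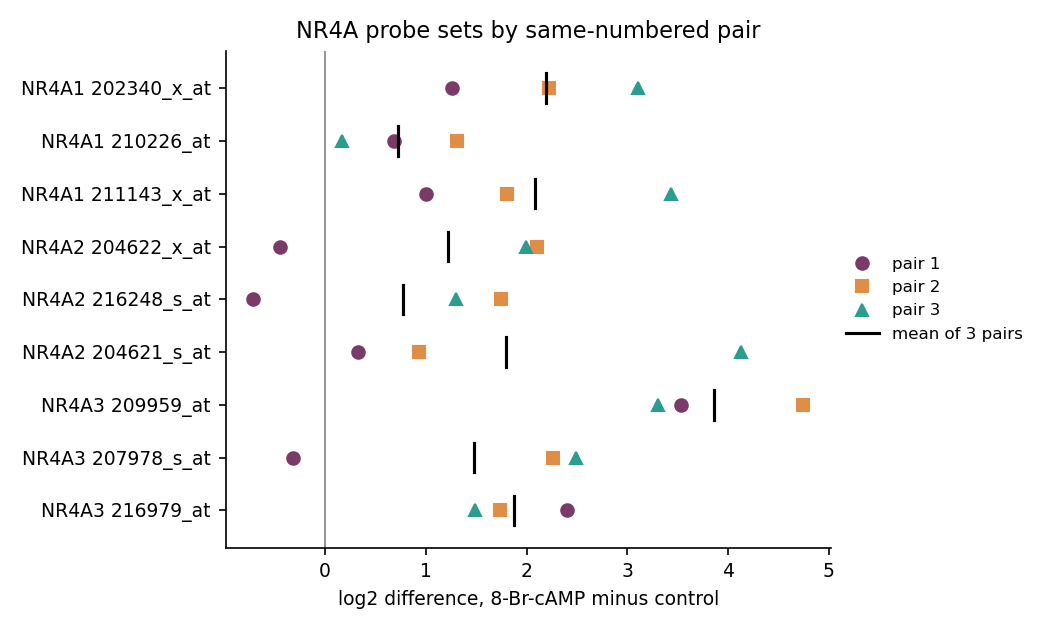
Log2 difference (8-Br-cAMP minus control) of each NR4A probe set in same-numbered pairs 1, 2 and 3 (symbols) and the mean of the 3 pairs (black bar). Pair 1 is below 0 for 3 probe sets, and pairs 2 and 3 are above 0 for all 9.

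The size of the response was compared between the genes by the log2 ratio of their brightest probe sets on the same array, in 3 gene pairs, with an exact two-sided permutation test over the 6 arrays, whose smallest possible p is 0.1. The response of NR4A3 exceeded that of NR4A2 by 2.65 (ratio 0.16 ± 0.83 in controls and 2.81 ± 1.71 after treatment, SD, n = 3; exact p = 0.1, adjusted 0.15). It exceeded the NR4A1 response by 1.67 (-2.53 ± 1.60 and -0.86 ± 1.78, SD, n = 3; exact p = 0.4, adjusted 0.4). NR4A1 exceeded NR4A2 by 0.98 (2.69 ± 0.79 and 3.67 ± 0.13, SD, n = 3; exact p = 0.1, adjusted 0.15). All 3 differences kept their sign in each same-numbered pair, but that of NR4A3 over NR4A1 fell to 0.20 in pair 3, and that of NR4A1 over NR4A2 was 0.12 in pair 2. After quantile normalization of the arrays, the difference of NR4A1 over NR4A2 was -0.29 in pair 2. With all probe sets of each gene averaged, the differences shrank to 1.14, 0.74 and 0.40, and those involving NR4A2 were below 0 in pair 3. With 3 arrays a group this test could not pass 0.05, so it settles no order. On the brightest probe sets the ratios of NR4A3 to NR4A2 and of NR4A1 to NR4A2 did not overlap between the groups, and that of NR4A3 to NR4A1 did. With the probe sets averaged, each of these was the other way round. After quantile normalization the ratio of NR4A1 to NR4A2 on the brightest probe sets overlapped as well, so no order is read from the overlaps either.

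The genes whose profile over the 6 arrays was most like each NR4A gene were found by the root mean square difference between log2 profiles, each centred on its own mean. For NR4A1 these were DUSP5, a nuclear phosphatase of MAP kinases, the collagen gene COL4A1, the cell cycle inhibitor gene CDKN1A, the kinesin gene KIF3A and the alkaline phosphatase gene ALPL, at 0.33 to 0.35 against a median of 1.33 over all genes. Each had no overlap between groups (6.02% of all tested probe sets lay wholly higher after treatment), with differences of 1.69 to 2.18. For NR4A2 they were IL13RA2, BACE2, ITGA1, ETV1 and RAB38, at 0.12 to 0.26 (median 1.03), and all 5 shared the negative difference in pair 1 (-0.65 to -0.06). Choosing genes by their profile favours such shared traits, so they are no separate result. The closest to NR4A3 were SPRR1B, SPRR3 and SLC47A1, without overlap between groups, and PC and GREB1, with overlap, at 0.63 to 0.78 (median 2.32). These distances grow with the size of a gene's change and are not comparable between the 3 genes. Within the 7927 tested genes, NR4A2 was the 98th closest gene to NR4A1 and NR4A3 the 6791st. To NR4A2, NR4A1 was the 491st closest and NR4A3 the 7726th. To NR4A3, NR4A1 was the 165th closest and NR4A2 the 269th. These distances describe 6 arrays that share treatment and sample number.

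**Figure D4:**
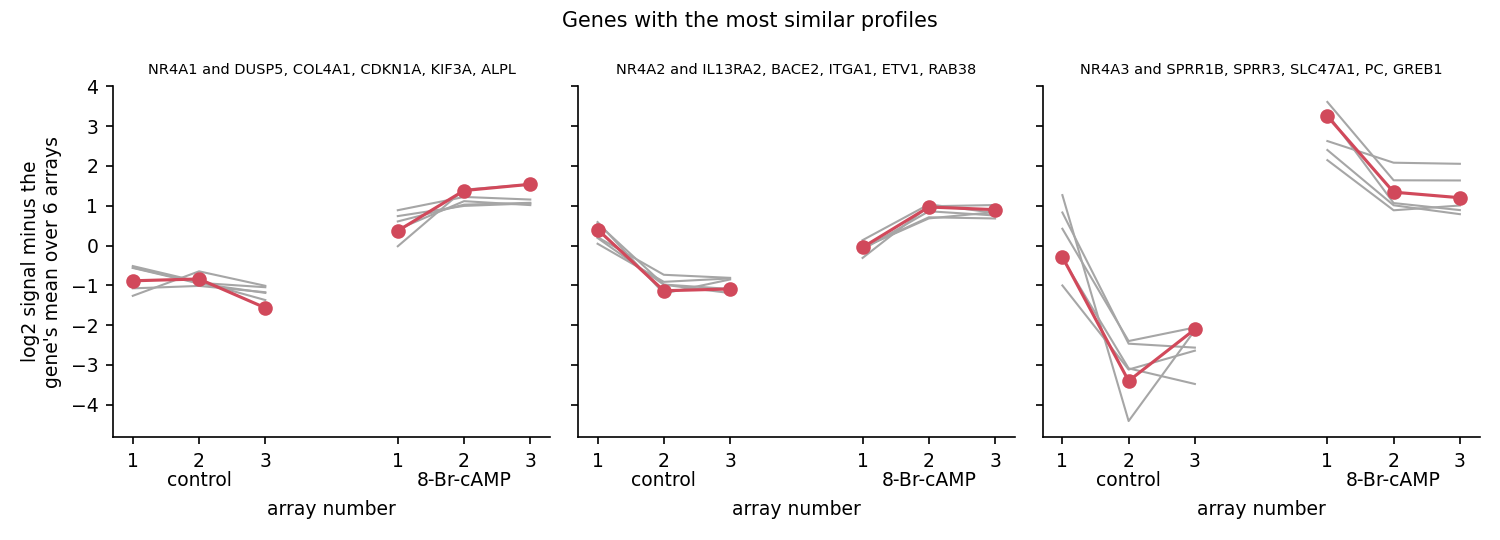
Log2 signal minus the gene's own mean over the 6 arrays, for the brightest probe set of each NR4A gene (red points) and the 5 genes with the smallest root mean square difference from it (grey lines). Lines only join arrays of a group; distances are 0.33 to 0.35 for NR4A1, 0.12 to 0.26 for NR4A2 and 0.63 to 0.78 for NR4A3.

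Other immediate early and CRE-driven genes moved upward where they passed. Of 24 listed genes 16 were tested, and 4 rose in the paired fit (EGR1, SIK1, JUNB and INHA) and 0 fell, with a median difference of 0.56, against 1.73% of 7927 genes that rose, 1.96% that fell and a median of -0.14. EGR1, an immediate early zinc finger factor, read 111.5, 251.9 and 263.8 on controls and 1427.4, 3357.4 and 3403.3 on treated arrays. Its rise of 3.70 (paired adjusted p = 0.00486) was close to that of NR4A3 on 209959_at, and its pairs lay within 3.68 to 3.74. SIK1, a cAMP-induced kinase that restrains CREB coactivators, rose by 1.70 (adjusted p = 0.0214) and the AP-1 gene JUNB by 1.36 (0.0307). INHA, the inhibin alpha subunit, rose by 1.39 (0.0449). FOS lay below the filter, at 7.0, 53.4 and 17.5 on controls and 7.5, 350.4 and 302.4 after treatment, so that, like NR4A2, it was no higher than the control range on 8-Br-cAMP 1. The list's median was 1.33 in pair 1, which holds the array with the high actin ratio, and 0.29 and 0.30 in pairs 2 and 3. Without the number 1 arrays it was 0.28, and 7 genes of this list passed upward and 0 downward, against 12.8% of genes that rose and 20.5% that fell.

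Upstream of the NR4A genes, 21 of 26 listed genes of protein kinase A, CREB and its coactivators, MEF2 factors and class IIa histone deacetylases were tested. In the paired fit 1 rose, SIK1, and 0 fell, with a median of 0.00. CREB1, the cAMP-responsive factor itself, differed by -0.58 (95% interval -1.09 to -0.07, adjusted p = 0.191). The coactivator genes CREBBP (-0.67, adjusted p = 0.125) and CRTC3 (-0.68, 0.121) and the kinase A catalytic gene PRKACB (-0.71, 0.130) did not pass either. CREM, which also encodes the inducible repressor ICER, was lower in pair 1 (-0.14) but higher in pair 2 (0.82) and pair 3 (0.79), a mean of 0.49 (paired adjusted p = 0.326). Without the number 1 arrays 4 of the 21 rose, CREM among them, and 6 fell, including CREB1, CREBBP, CRTC3 and PRKACB. Among all genes 12.8% rose and 20.5% fell there, and nothing particular to the list is read from these counts.

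Of 23 listed partners and co-regulators of NR4A proteins, 12 were tested, and 0 passed the paired fit (0 without the block, and 7 with the number 1 arrays left out, 2 of them up, where 12.8% of all genes rose and 20.5% fell). Their median difference was -0.32. RXRA, a retinoid X receptor that pairs with NR4A1 and NR4A2, differed by -0.13 (95% interval -0.87 to 0.61, adjusted p = 0.844). NR5A1, the steroidogenic factor that binds a site close to the NBRE, differed by -0.15 (-0.90 to 0.60, adjusted p = 0.821). The orphan receptor gene NR2F1 differed by -2.19 (adjusted p = 0.0842), with a signal of 6.0 on 8-Br-cAMP 1 and of 124.6 and 117.4 on the other treated arrays. The glucocorticoid receptor gene NR3C1 differed by -0.60 (0.151), the coactivator gene NCOA2 by -0.82 and BCL2, an apoptosis inhibitor that NR4A1 can bind, by -1.34 (both 0.110). NR0B1 was not analysed here.

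Of 12 steroidogenic and endocrine genes reported as NR4A targets, 9 were tested, 2 rose in the paired fit (CYP11B1 and CYP17A1) and 0 fell, with a median of 1.12. Of all genes, 1.73% rose and 1.96% fell in that fit. CYP11B1, the 11β-hydroxylase of cortisol synthesis, rose by 2.59 (adjusted p = 0.00805) and CYP17A1, the P450c17 gene, by 1.12 (0.0287). HSD3B2, the adrenal 3β-hydroxysteroid dehydrogenase, read 6937.9, 1062.6 and 895.9 on controls and 7455.8, 3293.1 and 3397.5 after treatment. It resembled NR4A2 in that pair 1 (0.10) was far below pairs 2 and 3 (1.63 and 1.92), and its difference of 1.22 did not pass (adjusted p = 0.119). CYP11B2, the aldosterone synthase gene, read 63.0, 46.1 and 22.0, and 942.6, 53.0 and 49.5, so that its difference of 1.76 (adjusted p = 0.209) came mostly from 8-Br-cAMP 1. Its sequence is close to that of CYP11B1, and its probes may bind both. STAR, which carries cholesterol into mitochondria, differed by 0.98 (0.0568), and AKR1C1, a 20α-hydroxysteroid dehydrogenase, by -1.15 (0.0513). Without the number 1 arrays 4 of the 9 rose, STAR and HSD3B2 among them, and AKR1C1 fell, beside 12.8% and 20.5% of all genes.

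Of 19 genes reported as NR4A targets in other tissues, 7 passed the signal filter, and in the paired fit 0 rose and 2 fell, with a median of 0.25 (1.73% and 1.96% of all genes). VCAM1, an adhesion molecule, fell by 2.53 (adjusted p = 0.00770) and SKP2, a ubiquitin ligase subunit of the cell cycle, fell by 1.34 (0.0262), and both lay lower in each of the 3 pairs. PDK4, a kinase that shuts down pyruvate dehydrogenase, read 180.0, 344.4 and 358.2 on controls and 150.5, 2611.2 and 2293.7 on treated arrays. Its difference of 1.78 (adjusted p = 0.158) was thus present in pairs 2 and 3 and not in pair 1, as for NR4A2. The survivin gene BIRC5 differed by 0.98 (0.138). Without the number 1 arrays 2 of the 7 rose, PDK4 by 2.80 (adjusted p = 5.65e-06) and BIRC5 by 1.38 (0.0013), and the same 2 as in the paired fit, SKP2 and VCAM1, fell (12.8% and 20.5% of all genes). The dopaminergic targets TH, SLC6A3 and SLC18A2 lay below the filter. All 5 lists were drawn up with results of these data in view, and their counts are a description.

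**Figure D5:**
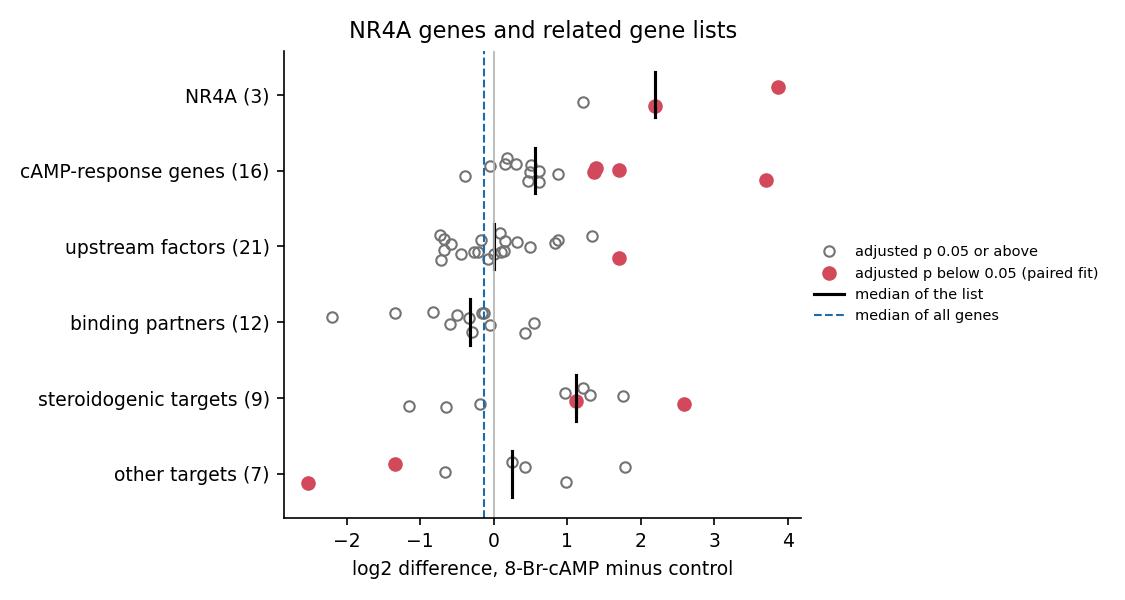
Log2 difference (8-Br-cAMP minus control) of each tested gene in the NR4A family and the 5 related lists (number tested in brackets), with filled points for an adjusted p below 0.05 in the paired fit, black bars for list medians and a dashed line for the median of all genes (-0.14). NR4A1, NR4A3 and 4 cAMP-response genes are filled on the right, as are CYP11B1, CYP17A1 and SIK1, which stands in both the cAMP-response and the upstream list, and 2 targets from other tissues on the left.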

How the data were processed

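The authors' deposited values are signal intensities, 1 per probe set and array, on a linear scale; per the labels and the submitters' processing notes they were made with GCOS 1.3 from biotin-labelled cRNA primed with oligo-dT. The 2% trimmed mean of each of the 6 columns lay between 249.996 and 250.155, so arrays were taken as already scaled. Of 22277 probe sets, 62 array controls were left out of the tests. The array name in the design text is not exactly that of the annotated platform, and probe sets were matched by identifier alone. GEO's platform annotation gave 1 symbol for 19064 probe sets, several for 1043 and none listed for 2108; 19052 gene IDs matched RefSeq, with 0 symbols changed. Intensities were taken to log2, and probe sets above the 40th percentile of mean log2 signal were tested across all genes with limma 3.58.1 in R 4.3.3 (lmFit, eBayes with trend, two-sided). The probe set with the highest mean stood for a gene. The fixed design had no block. As a check of pairing, each array's deviation from its group mean was correlated with that of the array of equal number in the other group (0.603, 0.378 and 0.538, each over 0.1). Deviations cancel out within a group, and the number 1 arrays stood apart in both groups. Positive values for numbers 2 and 3 can follow from that alone, so the check cannot show that the arrays were paired. The numbers were treated as pairs without support from the labels, and the paired fit is given beside the unpaired one. The members and gene lists were chosen with earlier results of these data known. Besides the members, genes named were the 4 with the smallest p in the paired fit of each list, a fixed set of 14 regulators and steroidogenic genes, and the 5 most similar profiles; list members named otherwise were picked after their values were seen. Detection calls were not used here. Precision is limited by having 3 arrays a group. The fits were tested on simulated data.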

Additional observations from a re-analysis of the deposited data

How the results depend on the processing

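All 3 genes kept a positive difference in every alternative that gave a value, with all 4 scalings among them; across all tested probe sets the median difference was -0.13, which became -0.03 (quantile), 0.09 (equal array medians) and -0.50 (18 spike-in probe sets). NR4A2 had no test with the filter at the 60th percentile or with probe sets averaged, where it lay below the filter; its averaged signals entered only the differences between responses. With no NR4A probe set and no probe set at all passing without the block, the counts of all passing probe sets were 17 with quantile normalization, 17 with a common median, 14 on spike-ins, 18 with the filter at the 60th percentile, 28 with a floor at the 20th percentile, 28 with a pseudocount of 16 and 1 with an unmoderated test, and 0 to 285 with an array left out. NR4A counts were then 0, or 0 to 2 with an array left out. With the replicate block 428 passed, 3 of them NR4A, with NR4A1 at 2.19 and NR4A3 at 3.86, and 1 upstream, 2 steroidogenic, 2 other target and 4 cAMP-response genes. Combined with the block, the counts of all and of NR4A probe sets were 337 and 3 with quantile normalization (NR4A1 2.27, NR4A3 4.00), 142 and 2 with a common median (NR4A3 4.09), 1064 and 2 on spike-ins (NR4A3 3.49), 406 and 2 with no filter (2.19 and 3.86), 440 and 2 with the stricter filter (2.19 and 3.86), 481 and 3 with the floor (2.19 and 3.84), 548 and 3 with the pseudocount (2.11 and 3.27), 81 and 1 without a trend (NR4A3 3.86), 408 and 3 with robust variances (2.19 and 3.86), and 0 and 0 with the unmoderated test. The NR4A1 call was lost there with a common median, on spike-ins, without a trend and with the unmoderated test, and the NR4A3 call with the unmoderated test; the cause was not tested. With the block and a pair left out, up to 4680 probe sets and 2 to 6 NR4A probe sets passed, with differences of 1.74 to 2.66 for NR4A1, 0.77 to 2.05 for NR4A2 and 3.42 to 4.14 for NR4A3. Without a block, leaving out an array gave 1.96 to 2.56, 0.95 to 1.72 and 3.13 to 4.69, and 0 to 2 upstream, 0 to 2 other target and 0 to 2 cAMP-response genes. With both number 1 arrays left out 4103 passed, 6 of them NR4A (2.66, 2.05 and 4.03), with 10 upstream, 7 partner, 5 steroidogenic, 4 other target and 7 cAMP-response genes. With probe sets averaged NR4A3 passed at 2.41, and with the block as well NR4A1 at 1.67 and NR4A3 at 2.41; 1 cAMP-response gene passed with averaging, with the floor and with the pseudocount. The paired value of the differences between responses, by an exact sign test over 3 pairs whose smallest p is 0.25, was 0.25 for each. Signals near or below 45.5, as for NR4A2 and for controls of 209959_at, give imprecise folds.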

Other observations

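The CRE core seen in the NR4A3 window was common among the immediate early and CRE-driven genes. Of 24 listed genes 23 had a window, and 21 of these held TGACG within 250 bases before a start, against 24.9% of 27305 genes. EGR1 held it at -135 and -66 and SIK1 at -217, -137 and -126, while INHA and JUNB held it once, at -138 and -137 (first bases, either strand). CREM held 2 cores in each of 2 windows, 1 of which has the full palindrome. NR4A3 is among the 0.3% of genes with at least 4 cores in a window, as are DUSP1 with 4 and CGA with 5. The full palindrome was found for 5 of the 23 (CGA, CREM, DUSP1, JUND and SST) and not for NR4A3, against 2.03% of all genes. The genes were listed as known CRE-driven genes, so their share is no independent result. Of 12 steroidogenic targets 8 had a window, and the NBRE letters AAAGGTCA were found for HSD3B1 and CYP21A2, against 1.29% of all genes. As these genes were listed as reported NR4A targets, this share is no independent result either. The windows of HSD3B2 and CYP17A1 held none, and STAR, CYP11B1 and CYP11B2 had no window. CYP21A2 had no probe set with a single symbol. Whether any of these letters bind CREB or an NR4A protein in these cells was not tested.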
